A study of Mus musculus with 6 samples.

Results

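The growth arrest genes of the p53 pathway and the Gadd45 family were examined in C2C12 cells, a mouse myoblast line, with forced expression of the homeobox gene Msx1. The 10 genes were chosen by name: Trp53, which encodes p53, its inhibitor Mdm2, the p53 targets Bax, Bbc3, Btg2, Sesn1 and Trp53inp1, and the family members Gadd45a, Gadd45b and Gadd45g. They are 10 of the 24809 genes in the table, and all 10 passed the filter on low values that left 12371 genes for testing. Libraries came from cells whose genotype is given as control (n = 3) and from cells overexpressing Msx1 (n = 3). The headings of the control columns name a vector. The sources used here do not give how Msx1 was introduced, whether either group was a clone or a mixed population, or the density and stage of the cells at harvest. The replicates are not said to be separate cultures, so the spread that the p-values measure is that of these samples and may be technical.

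p53 is a transcription factor that is held low by Mdm2, the ubiquitin ligase that marks it for degradation and that p53 itself induces. Stress kinases release p53 from Mdm2, so its activity is set mainly by the amount and state of its protein, which RNA sequencing does not measure. Its targets include inhibitors of the cell cycle, inducers of mitochondrial apoptosis such as Bax, and repair genes. The Gadd45 proteins are small nuclear proteins that bind the kinase Cdk1, the replication clamp Pcna, the inhibitor encoded by Cdkn1a and the kinase encoded by Map3k4. Gadd45a is a p53 target, but each Gadd45 gene is also induced by routes that do not need p53. In mouse skeletal muscle, Gadd45a is known for its rise after denervation and fasting.

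The promoters of the Gadd45 genes, which moved in the same direction, and of Btg2 and Bax, which moved in the opposite direction, are shown to let their letters be compared. Each is the 250 bases before the transcript start in a RefSeq promoter table of the build GRCm38.p6, read 5′ to 3′ on the strand of the gene. For Bax that start lies a few bases inside the outermost end annotated for the gene. Capitals mark CCAAT, the letters bound by NF-Y, and ATTTGCAT, the octamer bound by Oct factors such as the one encoded by Pou2f1, on either strand. On the opposite strand these read ATTGG and ATGCAAAT. ATTTGCAT was picked after the windows had been seen.

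Gadd45a, chr6:67037408-67037657, minus strand: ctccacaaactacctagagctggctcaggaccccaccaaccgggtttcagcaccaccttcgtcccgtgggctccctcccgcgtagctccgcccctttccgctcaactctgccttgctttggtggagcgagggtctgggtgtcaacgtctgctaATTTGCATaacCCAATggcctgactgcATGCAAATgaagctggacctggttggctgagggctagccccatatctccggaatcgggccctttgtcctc
Gadd45g, chr13:51846425-51846674, plus strand: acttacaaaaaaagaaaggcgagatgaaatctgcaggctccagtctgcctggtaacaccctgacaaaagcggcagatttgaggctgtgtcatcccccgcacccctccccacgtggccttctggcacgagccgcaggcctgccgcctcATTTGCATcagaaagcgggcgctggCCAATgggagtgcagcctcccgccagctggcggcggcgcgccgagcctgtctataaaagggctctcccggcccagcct
Gadd45b, chr10:80929841-80930090, plus strand: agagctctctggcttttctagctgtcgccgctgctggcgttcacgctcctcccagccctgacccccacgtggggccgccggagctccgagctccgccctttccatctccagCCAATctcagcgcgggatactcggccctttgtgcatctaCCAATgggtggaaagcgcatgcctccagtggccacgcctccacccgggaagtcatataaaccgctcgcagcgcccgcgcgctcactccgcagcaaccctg
Btg2, chr1:134079156-134079405, minus strand: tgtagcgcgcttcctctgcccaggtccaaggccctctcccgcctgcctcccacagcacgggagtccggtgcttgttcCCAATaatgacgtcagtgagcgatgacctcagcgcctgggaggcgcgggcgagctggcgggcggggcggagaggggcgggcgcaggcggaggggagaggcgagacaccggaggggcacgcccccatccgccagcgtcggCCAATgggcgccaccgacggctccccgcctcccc
Bax, chr7:45466899-45467148, minus strand: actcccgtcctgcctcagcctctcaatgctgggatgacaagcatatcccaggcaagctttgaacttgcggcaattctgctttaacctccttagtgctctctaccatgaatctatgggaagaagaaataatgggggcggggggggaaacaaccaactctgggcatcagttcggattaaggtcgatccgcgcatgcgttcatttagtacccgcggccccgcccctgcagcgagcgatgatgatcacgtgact

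Counting back from -1 at the base before that transcript start, the Gadd45a promoter held CCAAT from -86 to -82, between an octamer from -97 to -90 and another on the opposite strand from -70 to -63. The Gadd45g promoter had CCAAT from -78 to -74 with an octamer from -103 to -96. Gadd45b had CCAAT from -139 to -135 and from -100 to -96, and no octamer. In human cells, Oct and NF-Y factors are known to act on the promoter of GADD45A through such elements. The Btg2 window held CCAAT from -173 to -169 and from -34 to -30, and the Bax window held none.

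RefSeq windows were matched for 9 of the 10 genes, all but Trp53inp1. Across all 32851 windows of 250 bases before to 50 after a start, CCAAT was present in 37.4% and ATTTGCAT in 1.74%, searched on both strands. Among the 9 genes, 8 had CCAAT in at least 1 window, and ATTTGCAT was found in those of Gadd45a and Gadd45g. Bbc3 had 3 windows, with CCAAT only in window 3, and Sesn1 had 2. This count by gene is therefore not on the same scale as the share of all windows. The p53 half-site, found in 8.36% of windows, had a match in Gadd45a from -40 to -31, in Bax from -201 to -192, in Trp53, in Mdm2 and in 1 window of Sesn1. TAATTG, letters that Msx homeodomains bind, was in 8.00% of all windows and in none of these. CANNTG, the E-box that Myod1 and many other factors bind, was in 72.3% of all windows, and its matches can overlap the octamer. A match describes letters and is no evidence of binding.

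Msx1 was measured at 7.99, 7.13 and 7.54 FPKM in control replicates 1 to 3 and at 1004, 944 and 912 FPKM in Msx1 replicates 1 to 3, so every library matched its label. FPKM count the fragments of a transcript relative to its length and to all mapped fragments in the library. The 8 myoblast markers were all detected, and 2 rose, 3 fell and 3 were not called, with a median change of -0.01. Their summed level was 2558 to 2740 FPKM in controls and 1846 to 1904 FPKM in Msx1 cells, nearly all of it from Vim, which many cell types express. Myf5, a determination factor of myoblasts, fell from 9.01 ± 0.396 to 1.64 ± 0.0968 FPKM, and the adhesion gene Ncam1 rose from 27.1 ± 2.88 to 53.1 ± 5.11 FPKM. Of the leukocyte markers, Ptprc, Adgre1 and Cd3e were listed at 0 in every library, and the list summed to 2.84 to 3.63 FPKM in controls and 1.13 to 1.44 FPKM in Msx1 cells, nearly all of it from Cd68, which fell from 3.00 ± 0.366 to 1.05 ± 0.114 FPKM. The 5 endothelial markers, all too low to test, summed to 0.244 to 0.361 and 0.756 to 1.06 FPKM. Of the 6 epithelial markers, Epcam was at 0 throughout and the sums were 15.5 to 19.7 and 9.49 to 11.1 FPKM, most of it from Krt14, which fell from 18.1 ± 2.30 to 9.55 ± 0.769 FPKM. The others were too low to test, with Krt5 at 0.0128 ± 0.0221 and 0.512 ± 0.0128 FPKM and Cdh1 at 0.0825 ± 0.0368 and 0.216 ± 0.0353 FPKM. With no filter on low values, 2 epithelial and 3 endothelial markers were called higher. Of 20 proliferation markers, 19 fell and 0 rose, with E2f1 not called and all 20 changes below 0, and their sum went from 635 to 749 FPKM in controls to 326 to 349 FPKM in Msx1 cells. The part of these markers in the results that follow was not tested. In bulk RNA, fewer cells that express a gene and less RNA per cell cannot be told apart.

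Gene changes were tested by limma on log2(FPKM + 1), Msx1 minus control, and a gene was called at an adjusted p under 0.05 over all 12371 genes. By this rule 22.0% of all genes tested were called higher and 32.4% were called lower, or 54.4% together. Among the 10 genes, 3 rose, 3 fell and 4 were not called. Gadd45a, Gadd45g and Gadd45b were those that rose, and Btg2, Bax and Trp53inp1 those that fell. The groups did not overlap in 6 of the 10, against 62.3% of all genes tested. The median change was -0.03 for the 10 genes and -0.07 for all genes tested. These shares are close to those of the whole table, and the series as a whole was so widely altered that a call by itself does not set a gene apart. Genes called higher were 40.4% of all calls, 55.4% with totals made equal without Msx1 and 50.8% after median-of-ratios scaling. Under those scalings the 10 genes gave 3 higher and 2 lower, and 3 higher and 3 lower.

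**Figure D1:**
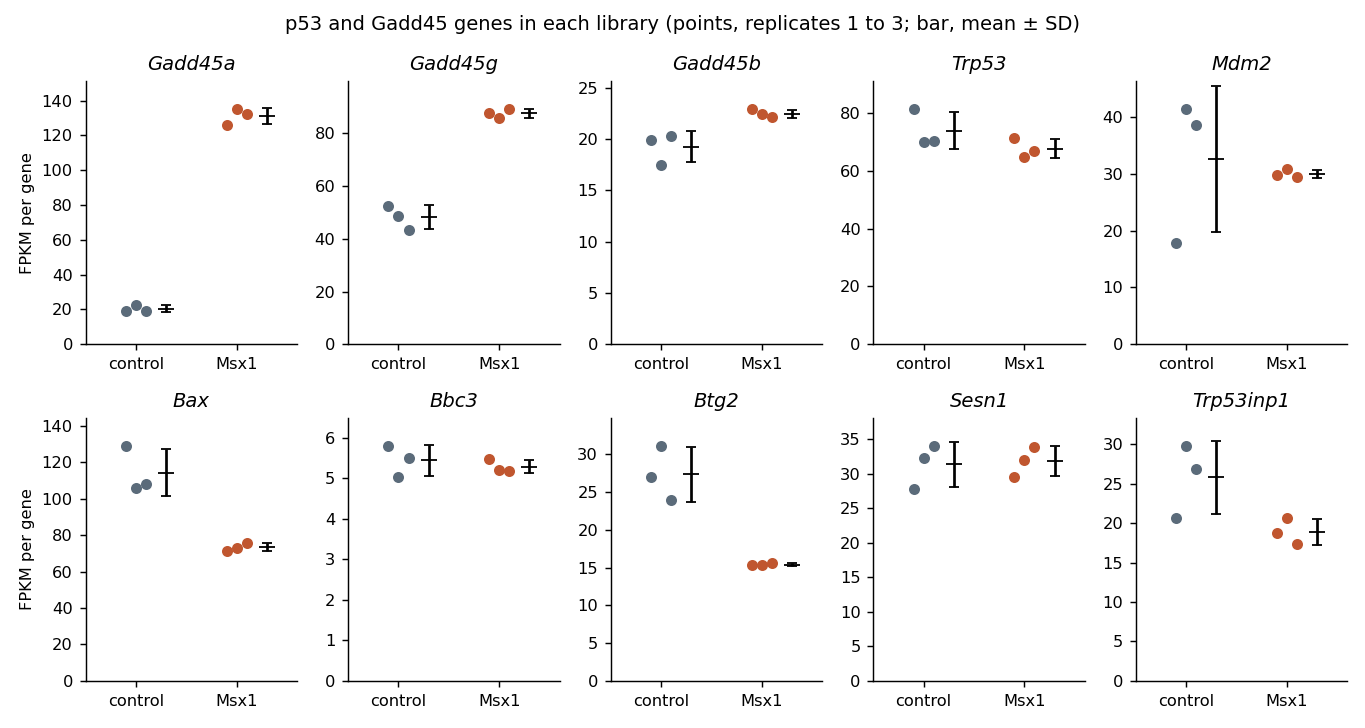
FPKM per gene (y axis, from 0) of the 10 p53 and Gadd45 genes in control and Msx1 cells, with 1 point per library in the order of replicates 1 to 3 and a bar for the mean ± SD (n = 3). Gadd45a, Gadd45g and Gadd45b sit higher in all 3 Msx1 libraries, Bax, Btg2 and Trp53inp1 sit lower, and Mdm2 has 1 low control library at 17.9 FPKM.

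Gadd45a, on chromosome 6 from 67035096 to 67037407 on the minus strand, had the largest change of the 10. Its control libraries read 19.3, 22.8 and 19.2 FPKM and its Msx1 libraries 126, 135 and 132 FPKM. The lowest Msx1 value was far above the highest control value. The mean went from 20.4 ± 2.04 to 131 ± 4.60 FPKM (SD, n = 3 each), a 6.41-fold rise. The log2 change was 2.63 (SE 0.07, 95% interval 2.46 to 2.80, limma adjusted p = 1.01e-07), the 78th from the top of the 12371 genes. The RNA E230016M11Rik, a long non-coding gene on the opposite strand, shares 809 bases with Gadd45a. It rose as well, from 0.411 ± 0.137 to 1.34 ± 0.116 FPKM (log2 change 0.73, limma adjusted p = 3.53e-04). Strand use in counting is not stated, so their reads cannot be told apart where they overlap, though the level of the non-coding gene was low beside that of Gadd45a.

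Gadd45g, on chromosome 13 from 51846675 to 51848475 on the plus strand, read 52.5, 48.6 and 43.4 FPKM in controls and 87.8, 85.8 and 89.2 FPKM in Msx1 cells. The groups were separate, with the Msx1 libraries close together. The mean rose 1.82-fold, from 48.1 ± 4.57 to 87.6 ± 1.68 FPKM (log2 change 0.85, SE 0.07, 95% interval 0.69 to 1.02, limma adjusted p = 3.11e-05). Gadd45b, on chromosome 10 from 80930091 to 80932204 on the plus strand, read 19.9, 17.5 and 20.3 FPKM in controls and 22.9, 22.4 and 22.1 FPKM in Msx1 cells. The groups did not overlap, but the step between them was smaller than the range among the controls. The mean rose 1.17-fold, from 19.3 ± 1.50 to 22.5 ± 0.421 FPKM (log2 change 0.22, SE 0.06, 95% interval 0.07 to 0.37, limma adjusted p = 0.0231). This call was lost when any one Msx1 library was left out, with adjusted p of 0.0800, 0.0632 and 0.0523 without Msx1 replicates 1, 2 and 3.

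The make-up of the family differed between the groups. Summed over the 3 genes, Gadd45 RNA was 91.7, 88.9 and 82.9 FPKM in controls and 237, 243 and 243 FPKM in Msx1 cells, 2.74-fold more on average. Gadd45g was the most abundant member in every control library and Gadd45a in every Msx1 library. Gadd45a made up 23.3 ± 2.31% of the sum in controls and 54.3 ± 1.15% in Msx1 cells (SD, n = 3). The share of Gadd45g was 54.7 ± 2.47% and 36.4 ± 0.944%, and that of Gadd45b 22.0 ± 2.39% and 9.33 ± 0.318%, so both took smaller shares of a larger sum.

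Ratios taken within a library do not depend on how the library was scaled. Gadd45a over Gadd45b was 0.966, 1.30 and 0.948 in controls and 5.49, 6.04 and 5.96 in Msx1 cells. Gadd45a over Gadd45g was 0.367, 0.469 and 0.444 in controls and 1.43, 1.57 and 1.48 in Msx1 cells. For both ratios all Msx1 libraries lay above all controls. On the log2(FPKM + 1) scale, the differences were 2.41 and 1.77. The exact two-sided permutation p was 0.10 for each, the smallest that 3 against 3 allow, and 0.12 after adjustment over the 5 ratios computed.

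**Figure D2:**
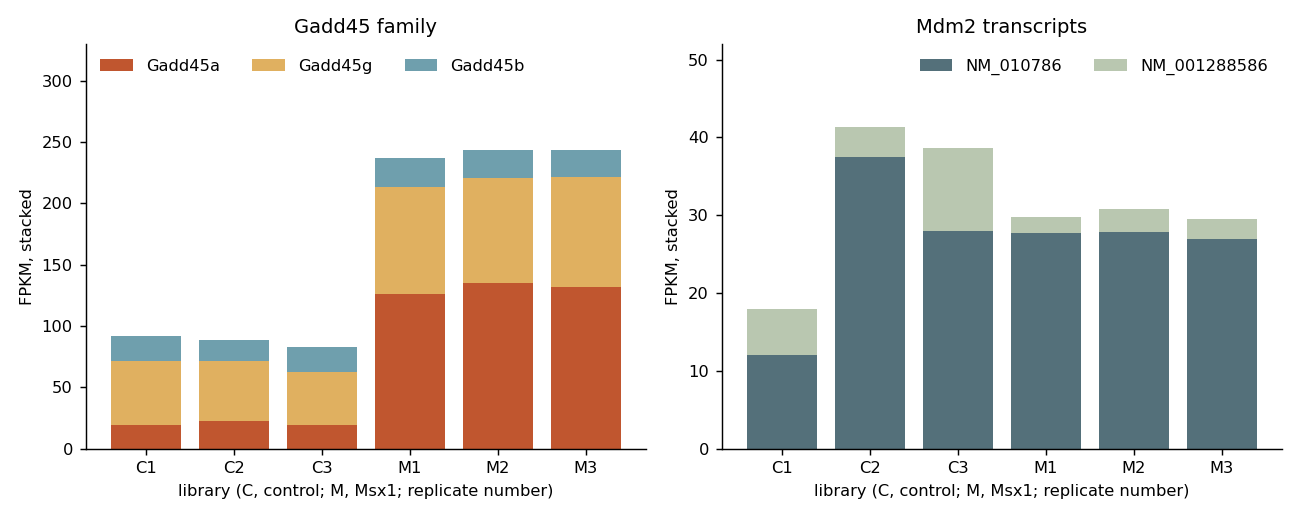
Stacked FPKM per library (y axes, from 0) of the 3 Gadd45 genes (left) and of the 2 RefSeq transcripts of Mdm2 (right), for control libraries C1 to C3 and Msx1 libraries M1 to M3. The Gadd45 stacks reach 82.9 to 91.7 FPKM in controls and 237 to 243 FPKM in Msx1 cells, mostly through Gadd45a, and control library C1 has the lowest Mdm2 stack.

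Trp53, on chromosome 11 from 69580348 to 69591873 on the plus strand, read 81.4, 69.9 and 70.5 FPKM in controls and 71.4, 65.0 and 66.8 FPKM in Msx1 cells. The groups overlapped. Its mean was 73.9 ± 6.45 in controls and 67.7 ± 3.33 FPKM in Msx1 cells, and the change was not called (log2 change -0.12, 95% interval -0.29 to 0.04, limma adjusted p = 0.185). The interval leaves room for a small fall or none. The transcript NM_011640 held 76.9% to 82.2% of Trp53 in every library. The other transcript, NM_001127233, was at 15.9 ± 2.88 FPKM in controls and 12.3 ± 0.428 FPKM in Msx1 cells. Wrap53, which lies on the opposite strand with 97 bases between its start and that of Trp53 in RefSeq, went from 7.40 ± 0.934 to 5.92 ± 0.574 FPKM (log2 change -0.28, limma adjusted p = 0.0432). The Wrap53 groups overlapped, with Msx1 replicate 2 at 6.57 FPKM above control replicate 2 at 6.52 FPKM. Its call was lost in 10 of 15 alternative analyses, among them those without control replicate 1 or 3 or Msx1 replicate 1 or 3, with adjusted p of 0.0970, 0.0941, 0.136 and 0.119.

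Mdm2, on chromosome 10 from 117688875 to 117710758 on the minus strand, rested on 1 library. It read 17.9, 41.4 and 38.7 FPKM in controls and 29.8, 30.8 and 29.5 FPKM in Msx1 cells. Control replicate 1 was below all Msx1 libraries, and the other 2 controls were above all of them. Over all libraries the mean was 32.7 ± 12.8 in controls and 30.0 ± 0.669 FPKM in Msx1 cells (log2 change -0.03, SE 0.27, 95% interval -0.66 to 0.60, limma adjusted p = 0.931). Without control replicate 1 the change was -0.40 (limma adjusted p = 4.67e-04), and with limma sample weights it was -0.33 (adjusted p = 0.0405). Its sign was positive without control replicate 2 (0.18), without control replicate 3 (0.13), with equal totals without Msx1 (0.08) and after median-of-ratios scaling (0.04). No direction is therefore given for Mdm2.

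The low value came from the main transcript. NM_010786 read 37.5 and 28.0 FPKM in control replicates 2 and 3 and 27.7, 27.8 and 27.0 FPKM in Msx1 cells, and in control replicate 1 it was 67.1% of the 17.9 FPKM. It was at 25.9 ± 12.9 FPKM over the controls. NM_001288586 read 5.90, 3.88 and 10.6 FPKM in controls and 2.09, 2.94 and 2.54 FPKM in Msx1 cells, so all Msx1 libraries were below all controls for it. Its share of Mdm2 was 32.9%, 9.38% and 27.5% in controls and 7.02% to 9.56% in Msx1 cells, where control replicate 2 overlapped. Shares between transcripts that overlap are estimates. Control replicate 1 was under 0.5 times both other controls in 71 genes, or 0.574% of those tested, and the other libraries were so in 43 to 60 genes.

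Mdm4, the partner of Mdm2 that blocks p53 activity, was more uneven than Mdm2, with a wide spread in both groups. It read 3.45, 23.7 and 20.4 FPKM in controls and 17.3, 4.15 and 3.55 FPKM in Msx1 cells. Control replicate 1 was low here too, but so were Msx1 replicates 2 and 3. The change was -0.82 (SE 0.73, limma adjusted p = 0.375), and -1.61 without control replicate 1 (adjusted p = 0.0423). The ratio of Mdm2 to Trp53 was 0.220, 0.592 and 0.548 in controls and 0.416, 0.473 and 0.442 in Msx1 cells. It differed by 0.09 on the log2 scale (exact two-sided permutation p = 1.0), and by -0.35 without control replicate 1.

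Of the genes Bax and Bbc3, whose proteins act on mitochondria in apoptosis, Bax fell and Bbc3 was not called. Bax forms the pore in the outer mitochondrial membrane, and lies on chromosome 7 from 45461695 to 45466903 on the minus strand. It read 129, 106 and 108 FPKM in controls and 71.2, 73.1 and 75.7 FPKM in Msx1 cells. All Msx1 libraries were below all controls, of which replicate 1 was the highest. Bax fell from 114 ± 12.9 to 73.3 ± 2.27 FPKM, 1.56-fold lower (log2 change -0.63, SE 0.08, 95% interval -0.81 to -0.44, limma adjusted p = 3.34e-04).

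Bbc3 encodes Puma, which frees or activates Bax, and lies on chromosome 7 from 16308398 to 16318334 on the plus strand. It read 5.80, 5.04 and 5.50 FPKM in controls and 5.48, 5.21 and 5.18 FPKM in Msx1 cells, with overlapping groups. It was the least abundant of the 10 genes in every library and was not called (log2 change -0.03, 95% interval -0.19 to 0.12, limma adjusted p = 0.694), with a sign that turned to 0.03 after median-of-ratios scaling, 0.00 after quantile normalization and 0.06 with equal totals without Msx1. The interval excludes a change as large as that of Bax.

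Bax was also lower relative to Bcl2l1 and Mcl1, whose antiapoptotic proteins oppose it. Bax over Bcl2l1 was 3.54, 3.14 and 3.21 in controls and 1.25, 1.29 and 1.29 in Msx1 cells. Bax over Mcl1 was 1.56, 1.25 and 1.34 in controls and 1.05, 1.11 and 1.10 in Msx1 cells. Neither ratio overlapped between the groups. The differences were -1.35 and -0.34 on the log2 scale, each with an exact two-sided permutation p of 0.10, the smallest possible, and 0.12 after adjustment over the 5 ratios. Bcl2l1 itself rose from 34.6 ± 1.61 to 57.6 ± 1.16 FPKM (log2 change 0.72, limma adjusted p = 1.37e-05), whereas Mcl1 fell from 82.5 ± 1.69 to 67.5 ± 1.58 FPKM (-0.29, 0.00131). Bcl2, another gene that opposes Bax, was 2.16-fold lower, more than the 1.56-fold of Bax, so the lower ratio does not extend to it. The ratio to Bcl2 was not among the 5 computed.

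Btg2, an antiproliferative gene whose protein recruits the Ccr4-Not deadenylase to messenger RNAs, lies on chromosome 1 from 134074865 to 134079155 on the minus strand. It read 27.0, 31.1 and 23.9 FPKM in controls and 15.3, 15.3 and 15.6 FPKM in Msx1 cells. The Msx1 libraries were nearly equal and all below the controls. It fell from 27.4 ± 3.60 to 15.4 ± 0.187 FPKM, 1.78-fold lower (log2 change -0.78, SE 0.09, 95% interval -0.99 to -0.58, limma adjusted p = 1.71e-04), the largest fall among the 10 genes.

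Sesn1 encodes a sestrin, which restrains growth signalling through mTORC1, and lies on chromosome 10 from 41810574 to 41908436 on the plus strand. It read 27.7, 32.3 and 34.0 FPKM in controls and 29.5, 32.0 and 33.9 FPKM in Msx1 cells. The groups covered nearly the same range. It was not called (log2 change 0.02, 95% interval -0.17 to 0.22, limma adjusted p = 0.839). Its transcript NM_001013370 held 68.2% to 79.8% of the sum, with overlapping shares.

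Trp53inp1 encodes a partner of p53 that also takes part in autophagy, and lies on chromosome 4 from 11156441 to 11174379 on the plus strand. It read 20.7, 29.8 and 26.9 FPKM in controls and 18.7, 20.6 and 17.3 FPKM in Msx1 cells. Control replicate 1 was barely above the highest Msx1 library. It fell from 25.8 ± 4.69 to 18.9 ± 1.68 FPKM, 1.37-fold lower (log2 change -0.42, SE 0.13, 95% interval -0.72 to -0.12, limma adjusted p = 0.0245). The call was lost without control replicate 2 or 3 and without Msx1 replicate 1 or 3, with adjusted p of 0.0630, 0.0790, 0.0658 and 0.0825. It was also lost with equal totals without Msx1 (-0.31, adjusted p = 0.118). Of its transcripts, NM_021897 was at 15.6 ± 2.21 and 12.3 ± 1.43 FPKM and NM_001199105 at 10.2 ± 2.51 and 6.55 ± 2.68 FPKM in controls and Msx1 cells.

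**Figure D3:**
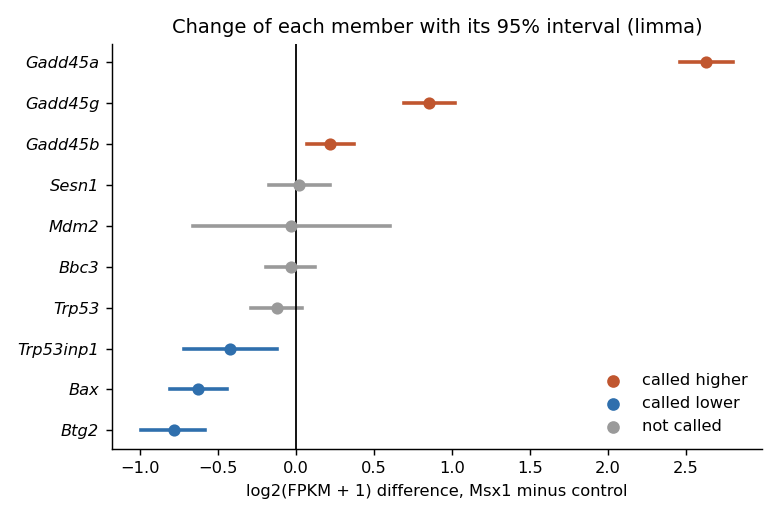
Difference of each of the 10 genes on the log2(FPKM + 1) scale, Msx1 minus control (x axis), as a point with its 95% interval from limma (n = 3 per group). Gadd45a at 2.63 stands far to the right of Gadd45g at 0.85, the widest interval is that of Mdm2, and Btg2 at -0.78 is the lowest.

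The order of the genes by level, per length, changed with these shifts. In controls Bax was highest, followed by Trp53 and Gadd45g, with no overlap between these 3. Mdm2, Sesn1, Btg2 and Trp53inp1 followed with means of 25.8 to 32.7 FPKM and overlapping ranges, and Gadd45a and Gadd45b came next at 20.4 and 19.3 FPKM, overlapping each other and the low control value of Mdm2, with Gadd45a also reaching the lowest value of Trp53inp1. In Msx1 cells Gadd45a was highest, then Gadd45g, then Bax and Trp53, whose ranges of 71.2 to 75.7 and 65.0 to 71.4 FPKM touched. Sesn1 and Mdm2 overlapped near 30.0 to 31.8 FPKM. Gadd45b, Trp53inp1, Btg2 and Bbc3 followed in that order with no overlap between neighbours.

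Among 24 regulators and partners of p53, 22 were tested, of which 4 rose, 5 fell and 13 were not called, with a median change of 0.05. In shares, 18.2% rose and 22.7% fell, beside 22.0% and 32.4% of all genes tested. These counts depended on the scaling, with 4 to 10 higher and 3 to 7 lower across the alternatives, and 3 lower without control replicate 3, Msx1 replicate 1 or Msx1 replicate 3. Trp63, which encodes the p53 relative p63, read 0.295, 0.506 and 0.287 FPKM in controls and 6.20, 6.49 and 6.17 FPKM in Msx1 cells. It rose 17.4-fold between groups far apart (log2 change 2.42, limma adjusted p = 2.69e-07). The p53 coactivator Ep300 rose from 17.2 ± 1.56 to 25.4 ± 2.05 FPKM (0.54, 0.00101). Ppp1r13l, which encodes an inhibitory partner of p53, rose from 4.27 ± 0.457 to 6.27 ± 0.436 FPKM (0.47, 0.00210). The checkpoint kinase genes Chek2 and Chek1 fell from 4.32 ± 0.350 to 1.88 ± 0.121 FPKM (-0.88, 3.61e-05) and from 2.34 ± 0.158 to 1.17 ± 0.130 FPKM (-0.62, 3.04e-04). Cdkn2a, whose Arf protein inhibits Mdm2, was listed at 0 in all libraries. C2C12 cells are known to lack this locus.

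Of 43 other genes known as p53 targets, 40 were tested, of which 8 rose, 23 fell and 9 were not called. In percent, 20.0% rose and 57.5% fell, beside 22.0% and 32.4% of all genes tested, and the median change was -0.34 beside -0.07. The list, like the others, was chosen with earlier results of these data known, so these shares are descriptive only. Across the alternatives 7 to 10 were called higher and 21 to 25 lower. Cdkn1a, the cell cycle inhibitor p21 and the most studied p53 target, read 197, 180 and 174 FPKM in controls and 176, 173 and 176 FPKM in Msx1 cells. The groups overlapped, and it was not called (log2 change -0.07, 95% interval -0.21 to 0.07, limma adjusted p = 0.377), with a sign that turned with equal totals without Msx1 (0.05) and after median-of-ratios scaling (0.01).

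The largest falls were in Perp, Dcxr and Ccng1. Perp, a membrane protein of desmosomes that also takes part in apoptosis, fell from 7.76 ± 0.961 to 0.996 ± 0.0640 FPKM (log2 change -2.13, limma adjusted p = 9.19e-07). Dcxr, a carbonyl reductase, fell from 46.7 ± 4.37 to 11.1 ± 1.20 FPKM (-1.98, 1.39e-06). Ccng1, the cyclin G1 gene that p53 induces, fell from 98.3, 118 and 112 FPKM in the control libraries to 38.3, 42.3 and 38.5 FPKM in the Msx1 libraries (-1.44, 2.75e-06). Those that rose most were Trp53inp2, an autophagy gene related to Trp53inp1, from 38.6 ± 1.33 to 71.0 ± 0.865 FPKM (0.86, 3.17e-06), the repair gene Xpc, from 6.31 ± 0.197 to 9.20 ± 0.265 FPKM (0.48, 2.21e-04), and Pmaip1, which encodes Noxa, from 1.87 ± 0.123 to 2.88 ± 0.206 FPKM (0.43, 0.00158). The Bax and Btg2 values thus lay in the direction of the larger number of listed targets, and Gadd45a in that of the smaller number.

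**Figure D4:**
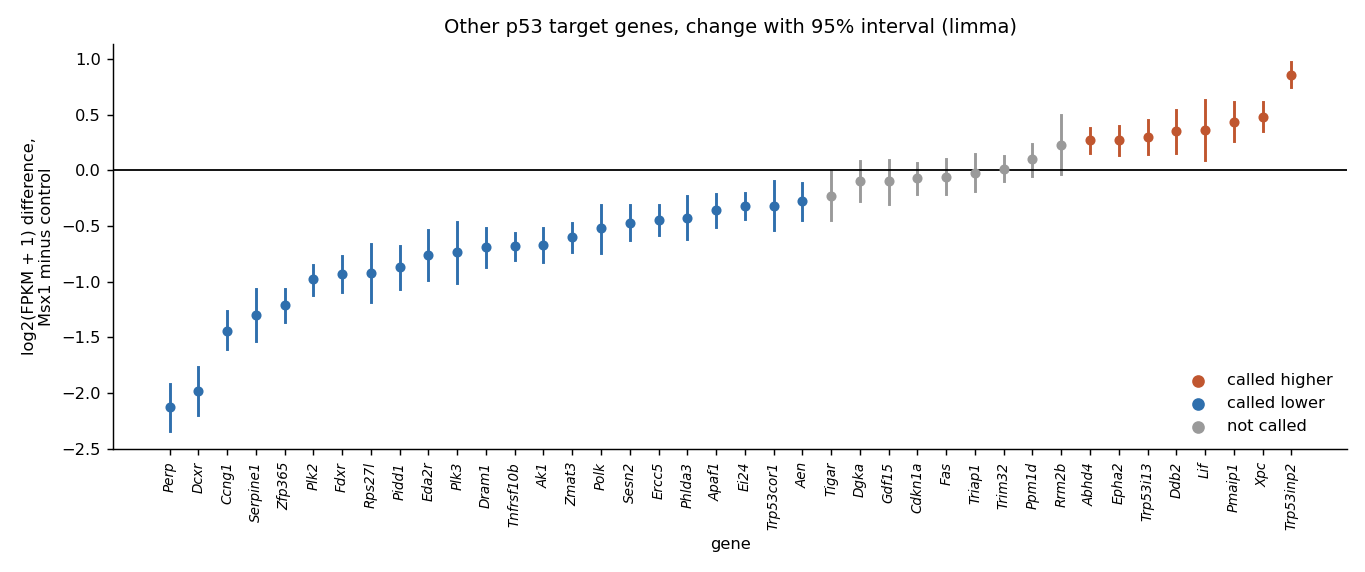
Difference on the log2(FPKM + 1) scale, Msx1 minus control (y axis), with its 95% interval from limma, for the 40 tested genes of the list of other p53 targets, in order of size (n = 3 per group). Of these, 23 were called lower, down to Perp at -2.13, and 8 were called higher, up to Trp53inp2 at 0.86.

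In the Bcl2 family and apoptosome list, 21 of 22 genes were tested and 7 rose, 7 fell and 7 were not called. The shares were 33.3% higher and 33.3% lower, beside 22.0% and 32.4% of all genes tested. With limma sample weights 13 were called lower. Bmf, a BH3-only inducer of apoptosis, read 4.48, 5.37 and 5.17 FPKM in controls and 26.4, 27.8 and 29.4 FPKM in Msx1 cells, all above the controls (log2 change 2.27, limma adjusted p = 2.36e-07). Bik rose from 0.301 ± 0.210 to 1.22 ± 0.476 FPKM (0.76, 0.00659), and Bok from 35.7 ± 6.23 to 59.1 ± 1.14 FPKM (0.72, 7.49e-04). Bcl2, which like Bcl2l1 protects cells from apoptosis, fell from 2.38 ± 0.154 to 1.10 ± 0.198 FPKM (-0.69, 3.49e-04). Cycs, which encodes cytochrome c, fell from 22.9 ± 1.83 to 15.5 ± 1.15 FPKM (-0.54, 6.23e-04), and Bad from 37.4 ± 3.41 to 28.9 ± 3.47 FPKM (-0.36, 0.0140). Genes that promote and genes that oppose apoptosis were thus found among both those that rose and those that fell. Among those that rose, however, only Bcl2l1 opposes apoptosis. Those that fell held Bcl2 and Mcl1, which oppose it, beside Cycs and Bad, which promote it.

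Of 20 Gadd45 partners and p38 and JNK kinases, 3 rose, 9 fell and 8 were not called. These are 15.0% higher and 45.0% lower, beside 22.0% and 32.4% of all genes tested. Ccnb1, Cdk1 and Pcna, all among those that fell, are also in the list of proliferation markers, so the falls of the 2 lists are not separate. With equal totals without Msx1 4 were higher and 6 lower, and without Msx1 replicate 1 only 1 was higher. Ccnb1 and Cdk1, the cyclin and kinase that drive mitosis, fell from 34.8 ± 2.49 to 11.6 ± 1.29 FPKM (log2 change -1.51, limma adjusted p = 4.32e-06) and from 31.7 ± 4.09 to 13.3 ± 0.682 FPKM (-1.19, 1.85e-05). Map2k6, an activator of p38, fell from 7.34 ± 0.635 to 2.54 ± 0.293 FPKM (-1.24, 1.33e-05). Mapk12, the p38 kinase abundant in muscle, rose from 10.2 ± 1.08 to 15.8 ± 0.704 FPKM (0.59, 4.85e-04). Dusp1 and Map3k5 rose by 0.36 and 0.29 (limma adjusted p = 0.0206 and 0.0155), and both calls were lost without Msx1 replicate 1 (0.0565 and 0.0516), that of Dusp1 also without Msx1 replicate 3 (0.0630). Map3k4, the upstream kinase that Gadd45 proteins activate directly, read 11.4, 12.4 and 11.6 FPKM in controls and 11.3, 10.9 and 10.9 FPKM in Msx1 cells (-0.09, 0.221). It was singled out after its values were seen.

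Of 17 transcription factors known to act on Gadd45 genes, 6 rose, 5 fell and 6 were not called. That is 35.3% higher and 29.4% lower, beside 22.0% and 32.4% of all genes tested. Egr1 read 152, 179 and 128 FPKM in controls and 27.7, 27.7 and 27.8 FPKM in Msx1 cells, far below the controls (log2 change -2.41, limma adjusted p = 1.16e-06). Brca1 fell from 3.53 ± 0.136 to 1.46 ± 0.147 FPKM (-0.88, 2.98e-05), and Jun from 35.6 ± 2.92 to 22.2 ± 1.13 FPKM (-0.65, 1.47e-04). Wt1 rose from 0.0561 ± 0.0302 to 3.19 ± 0.140 FPKM (1.99, 3.19e-07), Smad3, which carries TGF-β signals, from 19.1 ± 1.29 to 37.9 ± 0.661 FPKM (0.95, 5.72e-06), and Foxo1 from 8.41 ± 0.260 to 13.0 ± 0.345 FPKM (0.57, 6.60e-05). The NF-Y subunit gene Nfya, singled out for the CCAAT letters after its values were seen, rose from 15.5 ± 0.475 to 22.1 ± 0.184 FPKM (0.49, 8.97e-05). Nfyb, another NF-Y subunit gene, read 8.59, 9.98 and 8.90 FPKM in controls and 8.01, 8.23 and 8.07 FPKM in Msx1 cells, all lower, and was not called (-0.16, 0.0839). Pou2f1, singled out likewise for the octamer, was at 2.69 ± 0.263 and 3.13 ± 0.450 FPKM and was not called (0.16, 0.201). Atf4, which induces Gadd45a in the muscle of fasted mice and was singled out likewise, was at 143 ± 5.35 and 162 ± 14.4 FPKM and was not called (0.17, 0.0787).

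Relatives and partners of Btg2 and Sesn1 changed to different extents. In the list of the Btg and Tob family and the deadenylase, 12 of 13 genes were tested, of which 1 rose and 3 fell. That is 8.33% higher and 25.0% lower, beside 22.0% and 32.4% of all genes tested. Without control replicate 1, 6 fell, and without control replicate 2, 2 rose. Tob1 fell from 75.2 ± 3.72 to 38.8 ± 0.662 FPKM (log2 change -0.94, limma adjusted p = 3.62e-06), Prmt1 from 106 ± 12.9 to 72.7 ± 4.32 FPKM (-0.53, 0.00186) and the deadenylase gene Cnot6 from 26.7 ± 2.41 to 18.9 ± 1.07 FPKM (-0.48, 0.00110). Btg1, the closest relative of Btg2, rose from 38.5 ± 1.02 to 55.6 ± 1.80 FPKM (0.52, 6.39e-05), so the pair moved in opposite directions.

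In the list of sestrins, AMPK and GATOR, 19 of 20 genes were tested, of which 1 rose and 9 fell. These are 5.26% higher and 47.4% lower, beside 22.0% and 32.4% of all genes tested. Without Msx1 replicate 1, 5 fell, and with equal totals without Msx1, 2 rose and 5 fell. Sesn2 fell from 14.6 ± 0.957 to 10.2 ± 0.559 FPKM (log2 change -0.47, limma adjusted p = 6.41e-04), while Sesn3, named beside it after its values were seen, was at 28.0 ± 2.88 and 27.6 ± 1.40 FPKM (-0.02, 0.871). The AMPK subunit genes Prkaa1 and Prkab2 fell from 23.6 ± 2.38 to 17.8 ± 0.818 FPKM (-0.39, 0.00375) and from 8.44 ± 0.737 to 6.40 ± 0.199 FPKM (-0.35, 0.00413). Nprl3, a subunit of GATOR1, rose from 12.5 ± 0.193 to 15.9 ± 0.0830 FPKM (0.32, 8.12e-04).

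**Figure D5:**
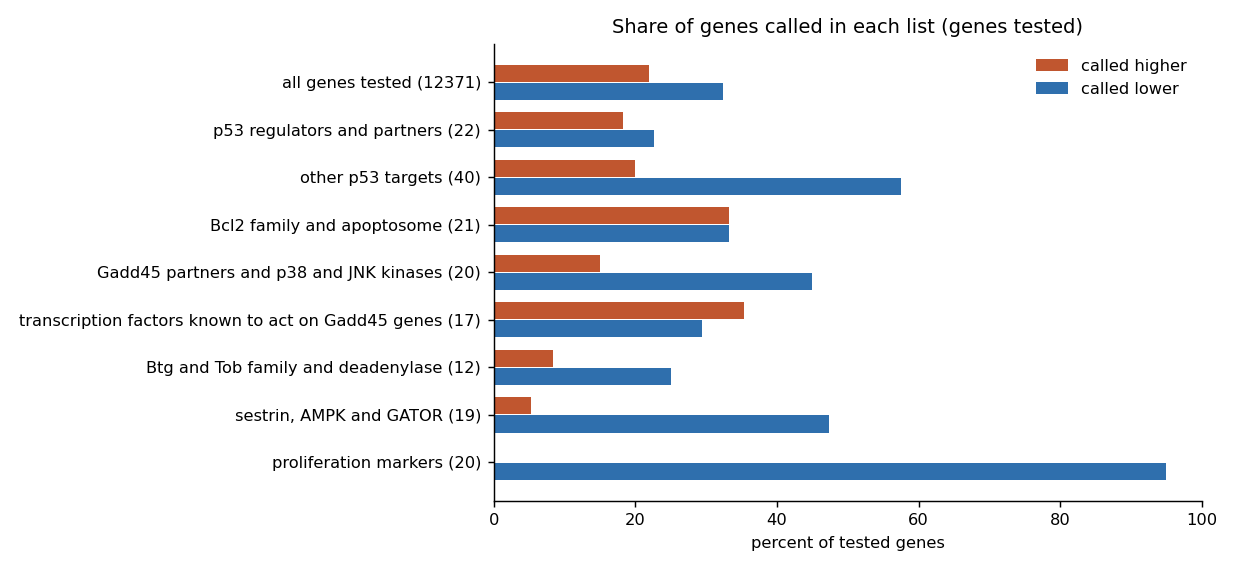
Percent of tested genes called higher and lower by limma (x axis) for all genes tested and for each list around the p53 and Gadd45 genes, with the number of genes tested in parentheses. Other p53 targets reach 57.5% lower beside 32.4% of all genes, and 19 of 20 proliferation markers are lower with none higher.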

How the data were processed

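RNA sequencing was done on 6 libraries of C2C12 cells, and the authors deposited 1 table of FPKM per RefSeq transcript, with 1 column per sample. The tools named, per the submitters' processing notes, are StringTie, HISAT2 and Trimmomatic, and the build is GRCm38 (mm10). Their versions and settings and the use of strand were not given in these sources. Control columns, whose headings name a vector, were matched by number to the control samples. StringTie estimates how reads divide among overlapping transcripts. FPKM are relative to each library. Total FPKM ranged from 409663.8 to 441834.7 in controls and from 390439.3 to 401802.5 in Msx1 libraries, so every Msx1 total was below every control total. The main fit did not rescale these totals.

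From the table of 38468 transcripts, symbols were taken from a RefSeq table of the same build for 38193 and from GENCODE for 156, and 119 kept their identifiers. FPKM were summed to 24809 genes. Read depth was not recovered: at the best step, 32.9% to 39.8% of low values in a library were whole multiples to within 0.1, and 20.0% would be for an unrelated step. Depth is therefore unknown.

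Genes whose mean reached 0.5 FPKM were tested with limma 3.58.1 in R 4.3.3 (trend, empirical Bayes, no block) on log2(FPKM + 1), with Benjamini-Hochberg adjustment over 12371 genes and a threshold of 0.05. A fold change on this scale understates that of low genes. Within-library ratios were tested by exact two-sided permutation. Tables were handled with Python 3.11.15 and pandas 2.3.3. The fit was tested on simulated data first. The 10 genes and all lists were chosen with earlier results of these data known. Named were the 10 genes, Msx1, Cdkn1a, Wrap53, Mdm4, Bcl2l1, Mcl1 and, from each list, the 3 called higher and the 3 called lower with the largest change, for the lists of markers in part. Ptprv was not matched in the table, and Trp53i11, Spata18, Trp73, Hrk, Btg4 and Rragb were too low to test. Alternatives were a pseudocount of 0.1, no filter, a mean of at least 1 FPKM, 3 scalings, sample weights, separate transcripts, a replicate block and leaving out each library.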

Additional observations from a re-analysis of the deposited data

How the results depend on the processing

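Gadd45a (2.59 to 2.74), Gadd45g (0.78 to 0.98), Bax (-0.68 to -0.52) and Btg2 (-0.87 to -0.63) kept their direction and call under all 15 alternatives, and Trp53 (-0.16 to -0.01) was called under none. Across the same alternatives 2 to 3 of the 10 genes were called higher and 2 to 4 lower. With transcripts kept separate, the value given for a gene is that of its most abundant transcript alone. The Mdm2 change was 0.04 after median-of-ratios scaling, 0.08 with equal totals without Msx1 and -0.33 (called) with sample weights. It ranged from -0.40 to 0.18 when single libraries were left out. With transcripts kept separate it was 0.22 for NM_010786. The other Mdm2 transcript, NM_001288586, was at 6.80 ± 3.46 FPKM in controls and 2.52 ± 0.426 FPKM in Msx1 cells. Bbc3 changed by 0.03 after median-of-ratios scaling, 0.00 after quantile normalization and 0.06 with equal totals, and by -0.08 to 0.00 when single libraries were left out. Sesn1 changed by -0.10 with sample weights, and by -0.06 to 0.08 when single libraries were left out. Gadd45b lost its call with transcripts kept separate (0.22), and its change was 0.15 to 0.25 when single libraries were left out. Trp53inp1 lost its call with no filter (-0.42), equal totals (-0.31) and transcripts kept separate (-0.32), and ranged from -0.56 to -0.31 when single libraries were left out. Cdkn1a, never called, was 0.01, 0.05 and 0.00 after median-of-ratios scaling, equal totals and sample weights. The log2 difference of the ratio of Mdm2 to Trp53 ranged from -0.35 (without control replicate 1) to 0.34 when single libraries were left out. With transcripts kept separate, Bad (adjusted p = 0.366), Nprl3 (0.333) and Prmt1 (0.115) lost their calls. The cause of these changes was not tested, except that tests on separate transcripts or with no filter adjust over more features. For a gene with several transcripts, the separate transcript is also a different feature from the gene sum.

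A replicate block, fitted because both groups carry the numbers 1 to 3, changed no call among the 10 genes and gave 2692 genes higher and 4055 lower, against 2718 and 4014 without it. Same-numbered libraries correlated at 0.055, 0.226 and 0.037 in their deviations. Control replicates 2 and 3 correlated best with the Msx1 library of the same number, but control replicate 1 did so with Msx1 replicate 3 (0.133). With so few libraries, these values cannot decide whether the numbers mark a shared batch or pairing. Depth is unknown, so no counting error could be attached to low genes such as Bbc3.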
